A study of Mus musculus with 4 samples.

Results

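Chemokines are small secreted proteins that attract leukocytes through G protein-coupled receptors. CC and CXC ligands are named for the spacing of their first cysteines, and most CC genes of the mouse lie in clusters. Eosinophils follow the eotaxins through the receptor CCR3, and they also secrete chemokines themselves. Messenger RNA of the ligands was described here in eosinophils sorted from bone marrow and from the pleural cavity.

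The members were all genes of the deposited table whose symbol is that of a Ccl, Cxcl, Xcl or Cx3cl ligand, Pf4 or Ppbp. They were 9 of 5807 listed genes, namely Ccl3, Ccl4, Ccl6, Ccl9, Ccl24, Ccl27b, Cxcl12, Cxcl13 and Pf4. Of 41 mouse chemokine ligand genes looked for, the other 32 were not listed, among them Ccl2, Ccl5, Ccl11, Cxcl2 and Ppbp, and have no value here. The table holds genes picked by the authors' own comparison of these tissues. That a member differs is therefore part of how it came to be listed, and all ratios are given as a description with no test.

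Both groups came from wild-type mice, 6 to 8 weeks of age, that received LLC cells, a Lewis lung carcinoma line, by injection into the pleural cavity to induce malignant pleural effusion (MPE). Pleural lavage cells were taken 2 days later. The labels name 2 libraries of bone marrow eosinophils and 2 of pleural cavity eosinophils, and whether animals were pooled was not given in the sources used here. The sample titles and the methods place the bone marrow in LLC-injected mice, whereas the results text of the study calls these cells naïve. Bone marrow cells were enriched on the surface protein encoded by Adgre1 and sorted as SiglecF-positive cells with high side scatter. Pleural cells were enriched on CD45, and their gate also required CD11b and the Adgre1 protein and removed CD11c-positive and Gr1-high cells. The gate thus differed together with the tissue, and gate and tissue cannot be told apart.

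For each gene the table gives 1 mean read count per tissue, averaged by the authors over the libraries and not scaled for depth. No value per library was given, so no spread between replicates is known. The means summed over listed genes to 15947438 reads in the pleural cavity and 11762543 in bone marrow, and these sums are not library depths. Siglecf, the surface marker in both gates, had 21371 mean reads in the pleural cavity and 7105.5 in bone marrow. The granule genes Prg2 and Epx had 1482 and 341.5 mean reads in pleural cavity against 555404 and 139062 in bone marrow eosinophils. Alox15 had 29945 and 79398, and Ear1, a ribonuclease gene with fractional reads, had 349.3 and 126461. Il5ra and Cebpe were not listed. Neutrophil and precursor markers took 12.6% of listed reads in bone marrow and 0.467% in pleural cavity eosinophils. Of the 18, 17 were lower in the pleural cavity, as were 57.5% of all listed genes. The methods give the sorted cells of both tissues as almost pure, with stained cells examined as well, and the purity of each library is not known here. In such bulk samples fewer cells of a type and less RNA per cell cannot be told apart.

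The ligands with most reads lay together. Ccl9, Ccl6, Ccl3 and Ccl4 occupy 91.8 kb of chromosome 11 of GRCm38, from 83572919 to 83664683, with Ccl4 on the plus strand and the rest on the minus strand. The promoters of Ccl6 and Ccl9 are shown because these genes carried the most reads of all members in both tissues. Each line is the 250 bases before the RefSeq gene start (GRCm38.p6, minus strand), written 5′ to 3′, at chr11:83593088-83593337 for Ccl6 and chr11:83578637-83578886 for Ccl9. Capitals mark the longest run of letters common to both windows.
Ccl6: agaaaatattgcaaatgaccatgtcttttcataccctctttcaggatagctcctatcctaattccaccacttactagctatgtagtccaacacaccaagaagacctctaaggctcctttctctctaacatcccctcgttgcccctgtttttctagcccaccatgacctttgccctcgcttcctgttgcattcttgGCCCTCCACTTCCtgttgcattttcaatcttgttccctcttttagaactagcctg
Ccl9: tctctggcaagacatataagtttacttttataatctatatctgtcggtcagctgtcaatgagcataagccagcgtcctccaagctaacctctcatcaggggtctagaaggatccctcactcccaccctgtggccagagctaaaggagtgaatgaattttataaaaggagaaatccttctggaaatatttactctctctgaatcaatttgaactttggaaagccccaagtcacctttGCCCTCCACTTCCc
The common run of 13 bases starts 55 bases before the gene start in Ccl6 and 14 bases before it in Ccl9. The run was picked from these windows, so its presence in both was fixed in advance. It was found, on either strand, in 5 of 32851 promoter entries of 250 bases, or 0.0152%. Those entries are Ccl6 and Ccl9 themselves and Eif5, Gm31822 and Satb1. Of the 9 members, 7 had a promoter entry, and Ccl4 and Ccl24 had none. The letters CTTCCT, which match a core bound by ETS factors, were searched on both strands and occurred 2 times in the Ccl6 window, where one copy begins inside the capitals. They were present for 4 of the 7 genes (Ccl6, Pf4, Cxcl13 and Ccl27b) and in 29.5% of all entries. The letters GATAA, a core of GATA factors, were found for 1 of the 7, Ccl27b, and in 22.6% of all entries. A gene was counted if any of its entries matched, and the 7 genes had 10 entries, the extra ones all of Ccl27b. The counts of genes and the shares of entries are therefore not in the same unit. These are matches of letters only.

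Of the 9 ligand genes, 7 averaged more reads in the pleural cavity and 2 averaged fewer, where 42.5% of all listed genes had more and 57.5% fewer. That background is of means as deposited, and with the tissues scaled to Siglecf the share of listed genes with more fell to 12.9%. Siglecf is itself a listed gene, with a ratio of 3.01, and so is not a neutral reference. As deposited, all 7 higher ligands were past a log2 ratio of 1, a threshold passed upward by 30.5% of listed genes. The other 2 were past -1, passed downward by 43.2%. The median log2 ratio of pleural cavity over bone marrow mean reads was 2.64 over the members and -0.58 over all listed genes. Intervals below are 95% Clopper-Pearson intervals that treat each mean as the count of 1 library. They cover counting error only and hold none of the variation between mice.

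**Figure D1:**
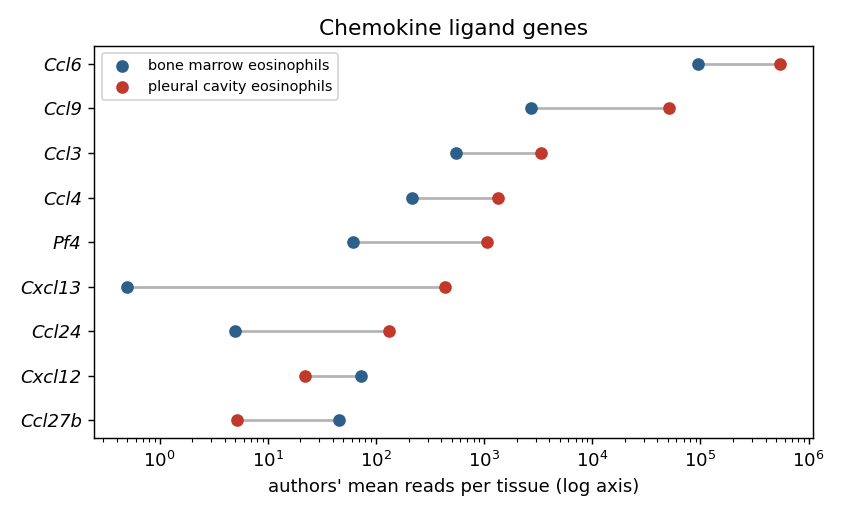
Authors' mean reads (log axis) of the 9 chemokine ligand genes in bone marrow (blue) and pleural cavity (red) eosinophils, 1 mean per tissue joined by a grey line, without error bars because no library values are known. Ccl6 reached 545792 mean reads in the pleural cavity, and Cxcl12 and Ccl27b alone lay lower there.

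Ccl6 and Ccl9 encode CC ligands of the receptor CCR1 that are known from myeloid cells of the mouse. Ccl6 (ENSMUSG00000018927, chromosome 11, 83587882 to 83593087) had 545792 mean reads in the pleural cavity and 94408 in bone marrow. That is a ratio of 5.78 (5.74 to 5.82) and a log2 ratio of 2.53. No other listed gene had as many mean reads in the pleural cavity, where Ccl6 took 3.42% of all listed reads, compared with 0.803% in bone marrow eosinophils. Per kilobase of the longest annotated transcript it ranked 1 among listed genes in the pleural cavity and 15 in bone marrow. Ccl6 was thus among the leading transcripts of the table in both tissues.

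Ccl9 (ENSMUSG00000019122, 83572919 to 83578636) had 51623.8 mean reads in the pleural cavity and 2688.5 in bone marrow. The ratio was 19.2 (18.47 to 19.97) and the log2 ratio 4.26. Its reads were fractional, so reads may have been divided between similar genes and the value is uncertain to that extent. The balance of these neighbours differed between tissues. Per kilobase, Ccl6 stood at 22.1 times Ccl9 (21.9 to 22.3) in the pleural cavity and at 73.3 times (70.5 to 76.2) in bone marrow. Such a ratio within a tissue does not depend on how the tissues are scaled.

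Ccl3 and Ccl4 encode the inflammatory proteins MIP-1α and MIP-1β, and CCL3 is also a ligand of CCR1. Ccl3 (ENSMUSG00000000982, 83647844 to 83649355) had 3388 mean reads in the pleural cavity and 549 in bone marrow, a ratio of 6.17 (5.64 to 6.77). Ccl4 (ENSMUSG00000018930, 83662584 to 83664683) had 1352.5 and 217, a ratio of 6.23 (5.40 to 7.23). The intervals of both ratios overlap. Per kilobase, Ccl3 stood at 2.16 times Ccl4 (2.03 to 2.30) in the pleural cavity and at 2.18 times (1.86 to 2.56) in bone marrow. This pair differed in level but by about the same factor in each tissue, in contrast to Ccl6 and Ccl9.

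**Figure D2:**
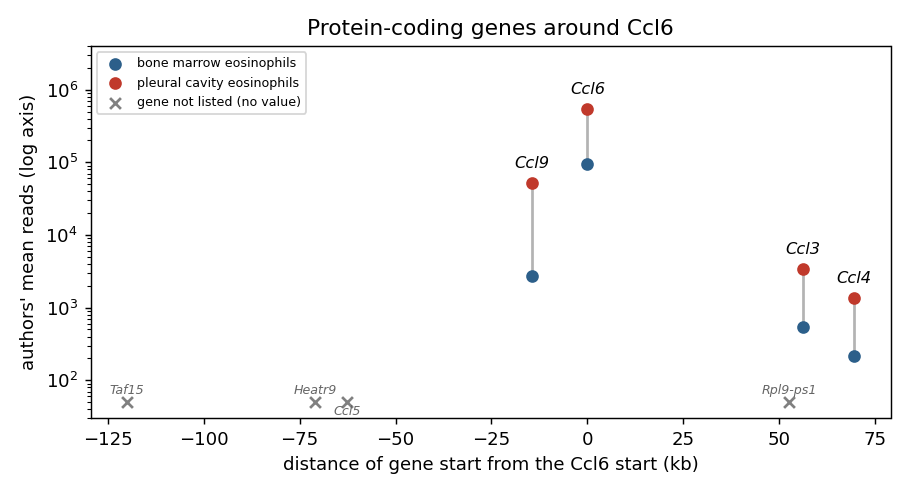
Authors' mean reads (log axis) of protein-coding genes that lie at least in part within 100 kb of the Ccl6 start on chromosome 11, by the distance of their own start in kb, with bone marrow in blue and pleural cavity in red. Grey crosses at the bottom mark genes that were not listed and carry no value. Of 8 genes, the 4 listed ones are Ccl9, Ccl6, Ccl3 and Ccl4, each with the red point on top.

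Within 100 kb of the Ccl6 start, 4 of 8 protein-coding genes were listed and all 4 are members, whereas Ccl5 in the same window was not listed. The reverse held around Pf4 on chromosome 5, where 5 ligand genes lie in such a window and Pf4 was the 1 listed, without Ppbp, Cxcl5, Cxcl3 and Cxcl15. Ccl24 was listed without its neighbour Ccl26. An unlisted gene has no direction here. Each window was centred on a listed ligand, so a listed ligand in it was fixed in advance. The share of all annotated genes that were listed is not given here.

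Ccl24 encodes an eotaxin, a ligand of CCR3, and was the only eotaxin gene listed. Ccl24 (ENSMUSG00000004814, chromosome 5, 135569937 to 135573049) had 131 mean reads in the pleural cavity and 5 in bone marrow. Its ratio of 26.2 carried a wide interval of 10.9 to 82.0, because of the few bone marrow reads. In level it stood far below the cluster genes, with 101 reads per kilobase in pleural cavity eosinophils against 379022 for Ccl6.

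Pf4 encodes platelet factor 4, a CXC ligand stored in platelet granules and also made by some macrophages. Pf4 (ENSMUSG00000029373, chromosome 5, 90772435 to 90773383) had 1069.5 mean reads in the pleural cavity and 62 in bone marrow, a ratio of 17.3 (13.3 to 22.7) and a log2 ratio of 4.11. Cxcl13, which encodes an attractant of B cells that acts through CXCR5, had 438 mean reads in the pleural cavity and 0.5 in bone marrow. Cxcl13 (ENSMUSG00000023078, chromosome 5, 95956951 to 95961068) was thus close to undetected in bone marrow. The ratio of 876 has a lower bound of 93.3 and an upper bound of 893521, and the log2 ratio is 7.19 when the bone marrow mean is set to the floor of 3 reads. With that floor it ranked 7 among all listed genes by log2 ratio.

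The remaining ligands were lower in the pleural cavity and had few reads in either tissue. Cxcl12 (ENSMUSG00000061353, chromosome 6, 117168535 to 117181367), the ligand of CXCR4 that retains leukocytes in bone marrow, had 22 mean reads in the pleural cavity and 72 in bone marrow. It was 3.27 times lower (2.01 to 5.54). Ccl27b (ENSMUSG00000096826, chromosome 4, 42655251 to 42656005), a ligand gene of the CCR10 group with close copies in the mouse genome, had 5.21 and 45.94 mean reads. That is 8.82 times lower (3.57 to 27.6), with fractional reads, so the value is uncertain.

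Per kilobase, the levels in pleural cavity eosinophils ran in the order Ccl6, Ccl9, Ccl3, Ccl4, Pf4, Cxcl13, Ccl24, Ccl27b and Cxcl12, from 379022 to 3.91 reads. In bone marrow eosinophils Ccl6 also stood first, with 65561 reads per kilobase, followed by Ccl9 with 894, Ccl3 with 717 and Ccl4 with 329. Ccl27b with 108 and Pf4 with 105 were next to each other there. Without library values, neighbours in these orders cannot be compared against their spread. Summed, the 9 ligands held 3.79% of listed reads in the pleural cavity and 0.834% in bone marrow, and Ccl6 made up 90.4% and 96.3% of those sums. The 8 ligands other than Ccl6 together had 58030 and 3640 mean reads, a log2 ratio of 3.99.

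How the tissues are set on 1 scale moved the size of these ratios and not their sign. Scaled to the total of listed reads, log2 ratios shift by 0.44 and the median of the members was 2.20. All 7 higher members then remained past 1, as were 16.0% of listed genes. Scaled to Siglecf, the shift was 1.59, so that 12.9% of all listed genes were higher, and the same 7 ligands were, with log2 ratios from 0.94 for Ccl6 to 5.60 for Cxcl13. Relative to Siglecf, Ccl9 was at 2.67, Pf4 at 2.52, Ccl3 at 1.04 and Ccl4 at 1.05. Ccl6, Ccl3 and Ccl4 therefore differed by about as much as one another, and Ccl9, Pf4, Ccl24 and Cxcl13 by more.

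**Figure D3:**
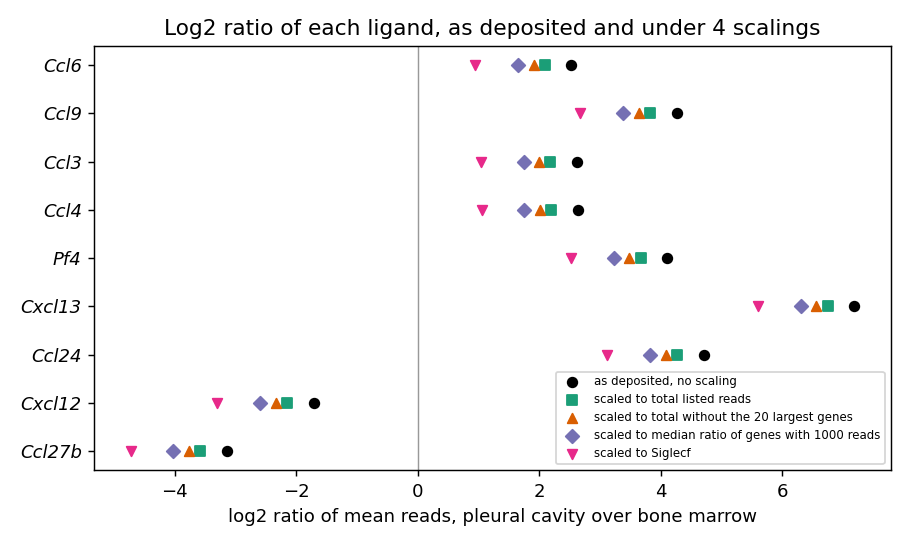
Log2 ratio of mean reads, pleural cavity over bone marrow, of each ligand as deposited (black circles) and under 4 scalings (colours and shapes), with a grey line at 0. The points of 7 ligands lie above 0 and those of Cxcl12 and Ccl27b below 0 under every scaling shown, and scaling to Siglecf gives the lowest value of each row.

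The receptors of these ligands were taken from a list of 23 chemokine receptor genes, of which 9 were listed. Of the 9, 5 had more mean reads in the pleural cavity as deposited and 4 had fewer, beside 42.5% and 57.5% of all listed genes. Scaled to Siglecf, 4 of the 9 were higher, beside 12.9% of all listed genes, and Ccr1 changed sides. Ccr3, the receptor for CCL24, had 67556.5 mean reads in the pleural cavity and 17177.5 in bone marrow, a log2 ratio of 1.98. Ccr1, shared by the ligands CCL3, CCL6 and CCL9, had 7146 and 3566, and its ratio of 2.004 was the smallest among the 5 higher receptors and the median of the 9. Its close relative Ccr1l1 had 690.5 and 78.5, a log2 ratio of 3.14. Ccrl2, an atypical receptor, had 3452.5 and 787, and Ccr7, which guides cells to lymph nodes, had 214.5 and 53. These 5 receptors and the 7 higher ligands were each grouped by their side as deposited, so that they share it was fixed in advance.

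The lower receptors were Cxcr2, Cx3cr1, Cxcr6 and Cxcr1. Cxcr2, a neutrophil receptor with fractional reads here, had 135.2 mean reads in the pleural cavity and 1178.6 in bone marrow. Cx3cr1 had 24.5 and 222.5, and Cxcr6 had 23 and 91.5. Cxcr1 was listed at 0 in the pleural cavity and at 15 in bone marrow eosinophils, and its interval allows a ratio of pleural cavity over bone marrow of up to 0.279. Cxcr4, Cxcr5 and Ccr10, receptors for the products of Cxcl12, Cxcl13 and Ccl27b, were not listed.

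**Figure D4:**
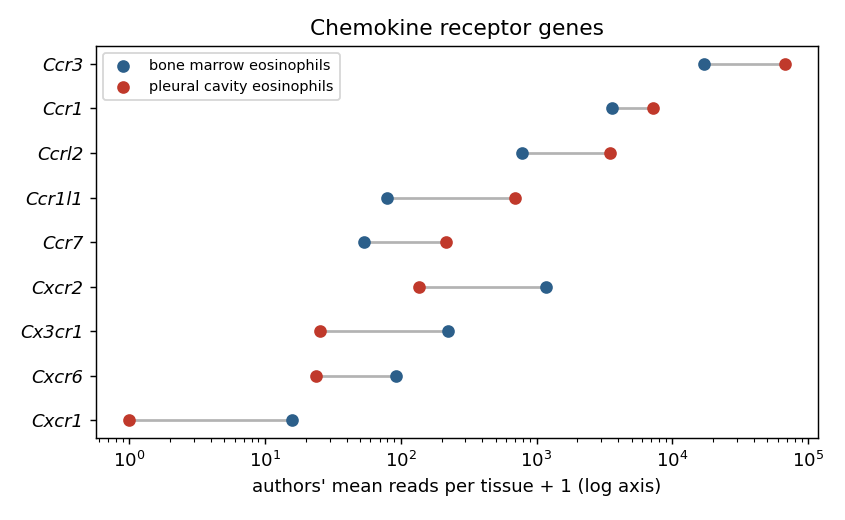
Authors' mean reads plus 1 (log axis) of 9 listed chemokine receptor genes in bone marrow (blue) and pleural cavity (red) eosinophils, 1 mean per tissue and no error bars. Ccr3 stands highest in both tissues, at 67556.5 and 17177.5 mean reads, and Cxcr2, Cx3cr1, Cxcr6 and Cxcr1 lie lower in the pleural cavity.

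Behind the receptors, 32 of 45 genes of chemokine receptor signalling were listed. As deposited, 24 had more and 8 fewer mean reads in the pleural cavity, beside 42.5% and 57.5% of all listed genes. Their median log2 ratio was 1.04. These counts rested on the scale. They stayed the same when scaled to the total of listed reads. At the median ratio of genes with 1000 reads, 20 were higher and 12 lower. Scaled to Siglecf, 6 of the 32 were higher (Arrb1, Dock2, Grk5, Pik3r5, Pik3r6 and Rap1b) and 26 were lower, with a median of -0.55, where 12.9% of all listed genes were higher. Among those with many reads was Cdc42, a small GTPase of cell polarity, with 35035.5 in the pleural cavity and 16399 in bone marrow. Rgs2, a brake on G protein signalling, had 26553.5 and 13342.5, Dock2, an activator of Rac in migrating leukocytes, had 18245 and 6065, and the kinase gene Prkcd had 13975 and 6548.5. Cdc42, Rgs2 and Prkcd changed sides under that scaling, and Dock2 lay almost level with Siglecf. The ratios of these 4 genes, picked by their reads, lay below those of the 7 higher ligands. That did not hold for the whole signalling list. Grk5, named after its value was seen, had 747.5 and 90 mean reads, a ratio of 8.31, above Ccl6, Ccl3 and Ccl4. Pik3r6 came next at 5.57, below all 7 higher ligands.

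Macrophages and platelets are known to make some of these ligands, and their markers are given beside them. Of 26 macrophage markers, 15 were listed and none of these was at 0. As deposited, 11 of the 15 had more mean reads in the pleural cavity, beside 42.5% of all listed genes. The median log2 ratio of the 15 was 2.38. Scaled to Siglecf, 10 of the 15 were higher, beside 12.9% of all listed genes. Summed, the list had 210946 mean reads in the pleural cavity and 115720 in bone marrow. Adgre1, whose protein was selected for in the eosinophils of both tissues, had 73916.5 and 11406, and Adgre5 had 40620 and 3316. Csf1r had 20627.5 and 3973.5, and Lyz2, with fractional reads, had 50392.5 and 87527.2. Chosen after their values were seen, Retnla had 6855.5 and 225 mean reads, C1qb 5065 and 1093, Marco 754 and 67.5, and Folr2 877 and 12. Besides Lyz2, the lower ones were Apoe with 4540.5 and 5554.5, Mrc1 with 250.5 and 445.5, and Cd163 with 115.5 and 300.5. Gata6, Timd4, Vsig4 and C1qc, which mark macrophages of body cavities or tissues, were not listed. Most listed genes of this list thus lay on the same side as the higher ligands. None was shown here to be confined to macrophages. The part of macrophages in the reads of Pf4, Ccl24, Cxcl13, Ccl6 and Ccl9 was not tested.

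Of 19 platelet and megakaryocyte markers 6 were listed, and 5 of the 6 had fewer mean reads in the pleural cavity, as did 57.5% of all listed genes, with summed means of 6185 there and 9759.5 in bone marrow eosinophils. Itga2b had 587.5 and 2640.5 mean reads, Thbs1 1656.5 and 4723, and Gp9 37.5 and 103. The 1 with more reads was Itgb3, an integrin gene, with 3891 and 2194.5, and scaled to Siglecf it was lower too. The other 13 markers have no value here, and the part of platelets in the reads of Pf4 was not tested.

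**Figure D5:**
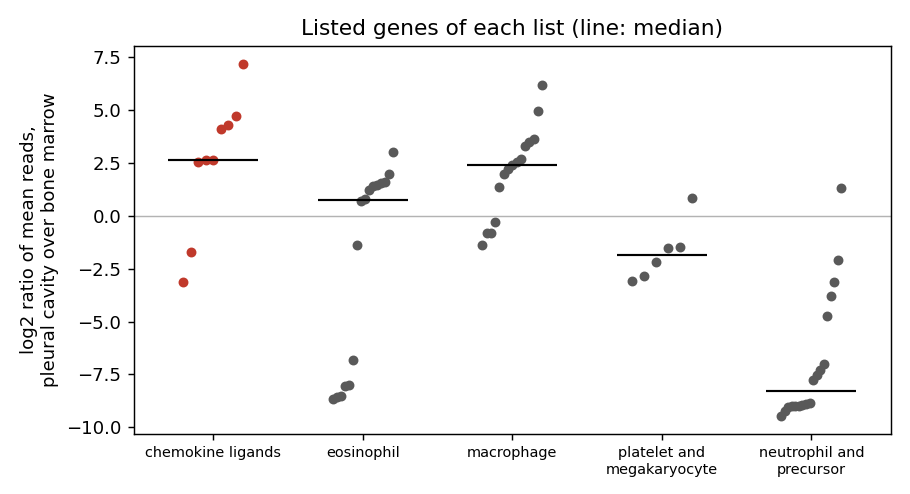
Log2 ratio of mean reads, pleural cavity over bone marrow, for each listed gene of the chemokine ligands (red) and of 4 marker lists (grey), with a black line at the median of each list and a grey line at 0. The medians, as deposited, are 2.64 for the ligands, 0.75 for eosinophil and 2.38 for macrophage markers. They are -1.84 for platelet and megakaryocyte and -8.30 for neutrophil and precursor markers.

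Among the remaining lists, neutrophil and precursor markers were led in reads by Ngp, with 546.5 mean reads in the pleural cavity and 263229 in bone marrow, S100a8 with 455 and 229058, Mpo with 374 and 196097 and Retnlg with 33927 and 147022. Of 11 basophil and mast cell markers 8 were listed. All 8 had fewer mean reads in the pleural cavity, as did 57.5% of all listed genes. Examples are Prss34 with 4.5 and 3810.5 and Hdc with 1084 and 9726.5. Cpa3 had 17.5 and 2802, and Mcpt8 had 5.5 and 2668. Of 16 lymphocyte markers 4 were listed and 3 of them were lower, namely Nkg7, Cd3d and Ncr1. The B cell gene Ms4a1 had 366 and 107 mean reads. Of 12 mesothelial and fibroblast markers 5 were listed and 4 were lower, with Krt18, at 1918 and 518, the exception, and Dcn, Col1a1, Col1a2 and Col3a1 at or below 8 reads in the pleural cavity. For lists this short, 3 of 4 and 4 of 5 lower are not far from the 57.5% of all listed genes. What the cells of these lists added to the ligand reads was not tested.

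The listed genes most like each ligand were taken as the nearest 2 by Euclidean distance of log2 mean reads plus 1 over the 2 tissue means. A pair of means describes little of a pattern, and Ccl6 had no close match, its nearest being H2-D1 at a distance of 1.06, followed by Tmsb4x. Nearest to Ccl9 were Adgre5 at 0.459 and Crip1 at 0.932. Ccl3 was nearest to Pttg1 (0.0977) and Abcg3 (0.176), Ccl4 to Elk3 (0.206) and Armc3 (0.228), and Pf4 to Ptger2 (0.127) and Prg4 (0.194). Ccl24 was nearest to Cd40 (0.0693), which had 137.5 and 5 mean reads, and then to Gm44851 (0.154). Cxcl13 was nearest to Gm14685 (0.594) and Mlxipl (0.762), both listed at 0 in bone marrow eosinophils. Of the lower pair, Cxcl12 was nearest to Endod1 (0.0486) and LOC115486430 (0.109), and Ccl27b to Tek (0.0515) and Btbd11 (0.0525).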

How the data were processed

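Eosinophils from 2 tissues, 2 libraries each, were profiled by bulk RNA-seq, and groups came from the sample titles. The authors trimmed reads with SOAPnuke, aligned them to GRCm38 with HISAT2 2.1.0, mapped them to genes with Bowtie2 2.2.5 and estimated expected counts with RSEM 1.2.8. The deposited mean read counts are averages of such expected counts over the libraries of a tissue, without scaling for depth. The authors' log2 fold changes, p-values and q-values, from their DESeq2 comparison, are also deposited and were not used.

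Doubled means were not whole for 25.8% of genes, and such genes are called fractional, since RSEM divides reads between similar genes. Ratios of the 2 means were computed with a floor of 3 reads for log2 values. No count test was possible, because no library values were given, so p-values and standard deviations are absent and the depth per library is unknown. Reads carry no molecular identifiers. Of the listed genes, 5656 matched GENCODE vM21 (GRCm38) by Ensembl identifier for transcript lengths and coordinates, a release earlier than that of the authors. Promoter sequences are from RefSeq (GRCm38.p6).

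The members and lists were chosen with earlier results of these data known. A few genes of the lists are not reported here and were left out of every list count. Named genes were all ligands and receptors, the 4 genes with most reads and any gene at 0 of each other list, and the 2 nearest genes of each ligand. Further genes were named after their values were seen, among them macrophage, platelet and eosinophil markers. Alternatives were 4 scalings, 1 added read and a minimum of 10 reads. The interval was tested on simulated data, though not at a mean as low as that of Cxcl13 in bone marrow. Calculations were run in Python 3.11.15 with scipy 1.17.1, pandas 2.3.3 and numpy 2.4.6, and plots were drawn with matplotlib 3.10.9.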

Additional observations from a re-analysis of the deposited data

How the results depend on the processing

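The number of ligands with more mean reads in the pleural cavity was 7 under all 4 scalings and with 1 read added. When only genes with a mean of 10 reads or more in each tissue were kept, 5 of the 6 ligands left were higher. The median log2 ratio of 2.64 became 2.20 when scaled to the total of listed reads, 2.02 without the 20 largest genes, 1.76 at the median ratio of the 1524 genes that had a mean of 1000 reads or more in each tissue, and 1.05 when scaled to Siglecf. The scaling to Siglecf, the alternatives for signalling genes and the use of protein-coding transcripts for lengths were chosen after seeing the data. No ligand changed sign under any of these. The count of platelet and megakaryocyte markers with fewer reads went from 5 to 3 under the minimum of 10 reads, since fewer genes are then counted. Scaled to Siglecf, chemokine receptor signalling genes went from 24 higher and 8 lower to 6 higher and 26 lower, and platelet and megakaryocyte markers from 1 higher to 0. Scaled to the total of listed reads, the signalling genes stayed at 24 higher and 8 lower. No paired analysis was possible because the table gives 1 mean per tissue, and leaving out a replicate was not possible for the same reason. Few bone marrow reads limit Cxcl13 and Ccl24.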
